A study of Homo sapiens with 11 samples.

Results

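A group of 34 genes out of 28252 measured had higher transcript levels in RT4 cells after 6 weeks of nickel than in untreated cells, and levels near or below the untreated ones 2 weeks after nickel was withdrawn. The genes were chosen by their RNA-Seq values, so these values describe the group and are no evidence for it. The rule used TPM (transcript abundance scaled by gene length and library size) plus 0.5, and took ratios between libraries of the same replicate number. A gene was kept when its Ni-E/UT ratio was 1.7 or more and its Ni-W/UT ratio 1.25 or less in both replicates, and its mean Ni-E level 2 TPM or more. Of the 499 genes that met the 2 thresholds on Ni-E cells, 465 (1.65% of all genes) failed the washout threshold, and they are called the other risers here.

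RT4 is a line of human urinary bladder epithelial cells from a non-invasive bladder cancer. UT cells grew without nickel. Ni-E cells were given NiCl2 at 100 μM over 6 weeks, and Ni-W cells came from the same exposure followed by 2 weeks in nickel-free medium. Each condition had 2 RNA-Seq libraries. H3K4me3 ChIP-Seq came from another line, BEAS-2B human lung epithelial cells, with a single library for each condition after the same dose and exposure time. The BEAS-2B Ni-W cells were 1 population grown from a single colony for more than 6 months without nickel, so the washout differed in length and in clonality between the lines. The study's methods describe the 2 RNA-Seq replicates as biological, while the labels mark the second RT4 library of each condition only as a duplicate, and p-values measure the spread between these libraries.

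Nickel ions can take the place of iron in dioxygenases that use oxygen and 2-oxoglutarate. These include the prolyl hydroxylases that mark hypoxia-inducible factors (HIF) for degradation, so nickel-treated cells express genes of the hypoxia response. MYC, ATF3 and the NR4A receptors are known as early response genes, whose transcripts are short-lived and are made soon after a stress or growth signal.

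The RT4 libraries held 17075833 to 27736454 estimated counts, and the 3 labelled replicate 1 were the shallower ones. All 20 urothelial and epithelial markers examined had a mean of 1 TPM or more, and 18 had 10 TPM or more. One marker each of 6 fibroblast (COL3A1), 4 endothelial (VWF) and 5 immune markers (CD68) reached 1 TPM. The summed level of the immune markers was 7.45 to 7.49 TPM in UT cells, 10.6 to 13.1 TPM in Ni-E cells and 13.4 TPM in both Ni-W libraries, that of the fibroblast markers 1.09 to 1.73, 3.01 to 4.75 and 2.34 to 5.13 TPM in the same order, and that of the endothelial markers 0.940 to 1.90, 0.610 to 0.960 and 0.880 to 1.67 TPM. The urothelial and epithelial markers summed to 14366 to 15615 TPM in UT cells, 15122 to 15373 TPM in Ni-E cells and 14978 to 17949 TPM in Ni-W cells, but some of them were lower in nickel-treated cells. KRT20, a keratin of differentiated urothelium, had 11.1 and 11.3 TPM in UT cells, 0.250 and 0.110 TPM in Ni-E cells and 1.59 and 1.37 TPM in Ni-W cells. The part of cell types and of urothelial differentiation in the results was not tested. Fewer cells of a type and less RNA per cell cannot be told apart in these bulk libraries.

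Promoter sequences were read from RefSeq (GRCh38.p14) for 23 of the 34 genes, over the 250 bases before and 50 bases after the annotated start. C11orf96, CASC9, EXT1, GOLGA8A, HEY1, MMP12, MYC, NR4A2, SNORA21 and SNORA71A were among those with no window counted. The core of the hypoxia response element, ACGTG or GCGTG on either strand, was present in 14 of the 23 windows (60.9%, 95% exact interval 38.5 to 80.3%). It was present in 57.1% of the 345 windows of the other risers and in 48.4% of all 27305 windows, both within that interval. The windows with the most matches are shown because they hold the pattern the nickel response is best known for, and CA9, a textbook hypoxia target chosen after its values were seen, is added. They lie at chr2:219253869-219254168 (TUBA4A, minus strand), chr9:137302222-137302521 (NRARP, minus), chr2:221574153-221574452 (EPHA4, minus), chr11:64166064-64166363 (MACROD1, minus) and chr9:35673678-35673977 (CA9, plus). Each is written 5′ to 3′ along its gene, with the cores in capitals.
TUBA4A: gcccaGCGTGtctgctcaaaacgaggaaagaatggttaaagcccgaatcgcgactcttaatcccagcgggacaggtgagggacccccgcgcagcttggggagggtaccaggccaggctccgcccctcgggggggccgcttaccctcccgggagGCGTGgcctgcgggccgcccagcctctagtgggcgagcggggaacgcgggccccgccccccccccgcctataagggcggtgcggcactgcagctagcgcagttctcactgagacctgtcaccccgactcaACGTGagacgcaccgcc
NRARP: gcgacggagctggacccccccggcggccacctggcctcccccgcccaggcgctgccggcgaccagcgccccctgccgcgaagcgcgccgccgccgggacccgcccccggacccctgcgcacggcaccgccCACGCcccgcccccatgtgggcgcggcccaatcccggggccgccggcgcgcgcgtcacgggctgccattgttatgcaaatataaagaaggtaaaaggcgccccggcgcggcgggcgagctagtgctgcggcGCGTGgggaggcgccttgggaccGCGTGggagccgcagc
EPHA4: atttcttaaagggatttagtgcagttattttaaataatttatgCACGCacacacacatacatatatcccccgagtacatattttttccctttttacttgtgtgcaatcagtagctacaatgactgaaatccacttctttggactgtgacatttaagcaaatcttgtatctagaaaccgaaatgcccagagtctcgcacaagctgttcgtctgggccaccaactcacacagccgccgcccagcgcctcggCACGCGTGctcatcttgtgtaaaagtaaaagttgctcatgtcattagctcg
MACROD1: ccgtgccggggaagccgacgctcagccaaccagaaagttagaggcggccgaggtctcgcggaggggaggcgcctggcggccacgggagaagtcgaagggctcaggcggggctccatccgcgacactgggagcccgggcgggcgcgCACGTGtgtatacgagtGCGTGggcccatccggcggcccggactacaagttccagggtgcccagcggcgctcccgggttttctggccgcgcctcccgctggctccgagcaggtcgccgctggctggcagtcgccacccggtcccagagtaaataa
CA9: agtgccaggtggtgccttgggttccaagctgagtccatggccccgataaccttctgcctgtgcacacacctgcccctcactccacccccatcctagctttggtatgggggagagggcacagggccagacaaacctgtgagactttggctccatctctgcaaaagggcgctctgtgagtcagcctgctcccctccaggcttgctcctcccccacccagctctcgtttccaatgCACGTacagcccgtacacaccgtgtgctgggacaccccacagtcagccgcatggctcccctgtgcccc

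TUBA4A, NRARP, EPHA4 and MACROD1 had 3 matches each, and in MACROD1 the palindrome CACGTG was counted once on each strand. The single core of CA9 began 18 bases before the start. EVL also had 3 matches, at a lower Ni-E level, and its window also holds CACGTG. The metal response element (TGCACNC or TGCGCNC) was in 11 of the 23 windows (47.8%, 26.8 to 69.4%), against 40.3% of the other risers and 29.3% of all windows. CCAAT was in 12 windows (52.2%, 30.6 to 73.2%), against 30.7% and 35.7%. The AP-1 pattern TGANTCA, with any base at N, was in 3 windows (13.0%, 2.78 to 33.6%), against 6.96% and 7.76%. It read TGAGTCA in CA9 and TGAATCA in LHX4 and MMP10. Further motifs were searched after the names of the genes were seen. The NR4A element AAAGGTCA was in the ATF3 window only (4.35%), against 1.21% of all windows, and the cAMP response element TGACGTCA in the FSTL4 window only (4.35%), against 1.98%. Its core TGACG was in 5 windows (21.7%), against 25.0% of all windows. The core bound by RBPJ, the DNA-binding factor of Notch signalling (TGGGAA or TGAGAA), was in 6 windows (26.1%), against 30.7% of the other risers and 37.4% of all windows, and not in that of NRARP. Matches are letters in a window and not bound sites, and the motifs of the metal element and the hypoxia core can overlap.

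In 32 of the 34 genes both Ni-E libraries lay above all UT and Ni-W libraries on the TPM scale. The share of all 12030 genes with a mean Ni-E level of 2 TPM or more was 5.90%, and since the rule used these values nothing is read from the difference. MYC and LHX4 were the exceptions. The Ni-E value of replicate 2 lay below the UT value of replicate 1 in MYC and below the Ni-W value of replicate 1 in LHX4. Replicate 2 was lower in all 3 conditions in both genes, as it was in 17 of the 34. The Ni-E/UT ratio (geometric mean over the replicates) had a median of 2.07 and reached 2 or more in 22 genes and 3 or more in 4, 2 of which are small nucleolar RNA entries. The Ni-W/UT ratio ran from 0.378 to 1.21, with 17 genes below 1, 15 above and 2 at exactly 1. The other risers had median ratios of 2.51 (Ni-E/UT) and 2.03 (Ni-W/UT), and in 115 of them the Ni-W/UT ratio was at least as high as the Ni-E/UT ratio.

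**Figure D1:**
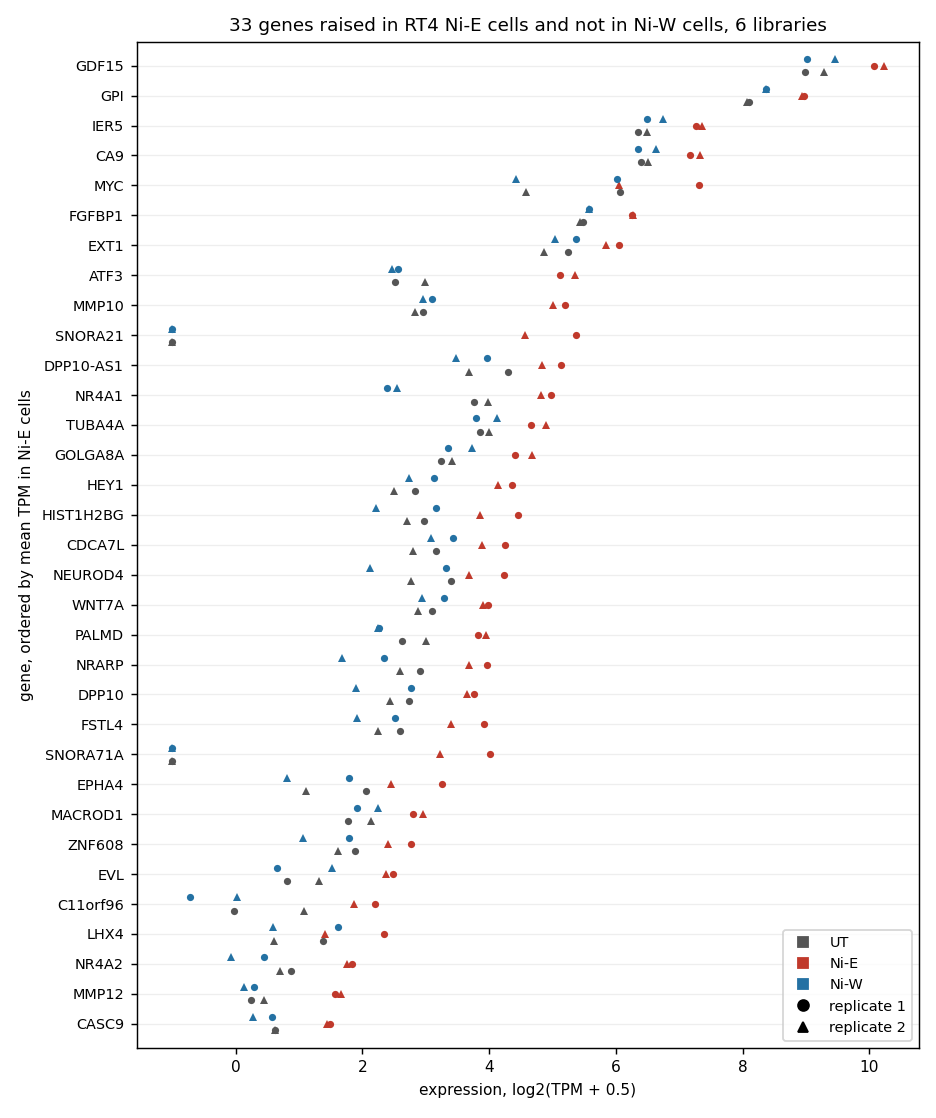
Expression of 33 of the genes in each RT4 library as log2(TPM + 0.5), 1 row per gene ordered by mean Ni-E level, with UT in grey, Ni-E in red and Ni-W in blue, and circles and triangles for replicates 1 and 2. Red symbols lie to the right of grey and blue ones in 31 rows, the blue symbols of NR4A1 lie left of the grey ones, and the circle and triangle of MYC lie far apart in each condition.

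**Figure D2:**
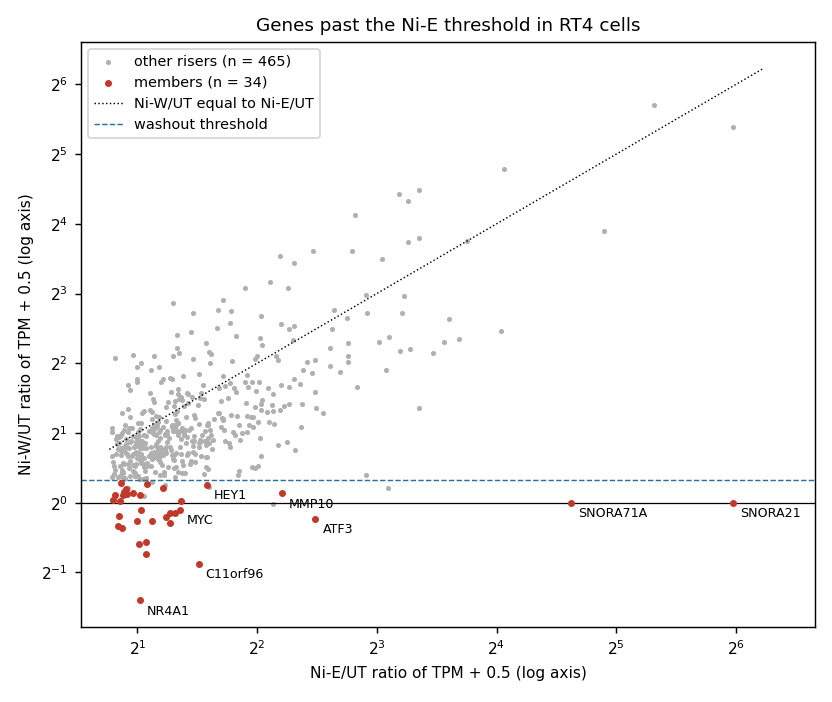
Ni-E/UT ratio (x axis) against Ni-W/UT ratio (y axis), both of TPM + 0.5, geometric mean of the replicates, log axes, for the 499 genes past the Ni-E thresholds. The 34 genes (red) lie below the dashed washout threshold by construction, and the 465 other risers (grey) lie around it and above, 115 of them on or above the dotted line of equal ratios.

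SNORA21 and SNORA71A, small nucleolar RNAs that guide pseudouridylation of RNA, entered the list on almost no reads. SNORA21 had 2 reads and SNORA71A 1 read in each Ni-E library and none in the other 4 libraries. Their effective lengths were 4.92 to 6.22 and 6.45 to 7.96 bases, so that these reads gave 41.1 and 23.2 TPM for SNORA21 and 15.7 and 8.89 TPM for SNORA71A. Both groups are at or below a floor of 3 counts, and no fold is given. Without them, 32 genes remained, the highest Ni-E/UT ratio was 5.60 (ATF3) and the medians were 2.04 (Ni-E/UT) and 0.931 (Ni-W/UT).

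Across all genes, the 32 others were fitted in 1 edgeR quasi-likelihood model of the 6 libraries with 14502 genes. A gene was called at 1.5-fold or more with a Benjamini-Hochberg adjusted p below 0.05. In Ni-E against UT cells 211 genes (1.45%) were called higher and 103 (0.710%) lower. Of the 32 genes, 3 (ATF3, HEY1 and MMP10) were called higher and none lower. Of the 20 urothelial and epithelial markers, 3 (KRT20, KRT13 and UPK1A) were called lower and none higher. The median of the 32 on the log2 scale was 1.11 for Ni-E against UT (all genes -0.01), -1.39 for Ni-W against Ni-E (all genes 0.02) and -0.19 for Ni-W against UT (all genes 0.00). The count of 211 rested on both Ni-E libraries and fell to 0 without either of them, to 25 without UT replicate 1 and to 11 without UT replicate 2, where the lone library is assumed to vary like the other groups. In these 4 fits none of the 32 genes was called.

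No gene was called in Ni-W against Ni-E cells with edgeR in either direction (0% higher, 0% lower). At an unadjusted p under 0.05 there were 336 lower and 472 higher genes, while DESeq2 called 50 lower and 89 higher and limma on log2(TPM + 1) none. Without a filter on low counts edgeR called 5 lower and 9 higher. With replicate number as a block edgeR called 261 lower (1.80%), 31 of the 32 genes among them, and 394 higher (2.72%), and in Ni-E against UT cells 1108 genes (7.64%) were then called higher, so the calls depended on whether the replicate numbers pair the libraries. DESeq2, which also left both small nucleolar RNAs without an adjusted p, called 14 of the 32 lower in Ni-W than in Ni-E cells (0.341% of all genes with an adjusted p). In Ni-W against UT cells edgeR called 73 genes (0.503%) higher and 14 (0.0965%) lower, none of them among the 32. KRT20 and KRT13 were among the lower ones. DESeq2 called 1 of the 32, NR4A1, lower in Ni-W than in UT cells (0.665% of all genes). The rule used all these contrasts, and nothing is read from the counts of its genes.

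The transcription factors among the genes are described first. ATF3, a stress-induced factor of the ATF/CREB family, had 5.20 and 7.46 TPM in UT cells (replicates 1 and 2), 34.3 and 40.4 TPM in Ni-E cells and 5.41 and 5.05 TPM in Ni-W cells. Its Ni-E libraries stood well clear of the rest, and UT and Ni-W libraries overlapped. The log2 fold changes were 2.52 ± 0.34 (SE) for Ni-E against UT and -0.37 ± 0.33 for Ni-W against UT. MYC, which drives growth and ribosome production, had 66.4 and 23.5 TPM in UT cells, 158 and 65.6 TPM in Ni-E cells and 64.3 and 20.9 TPM in Ni-W cells. The MYC level (TPM + 0.5) in replicate 1 was 2.79 times that in replicate 2 in UT cells, 2.40 times in Ni-E cells and 3.03 times in Ni-W cells, and the Ni-E value of replicate 2 lay below the UT value of replicate 1. Within a replicate number its Ni-E/UT ratios were 2.37 and 2.76 and its Ni-W/UT ratios 0.969 and 0.894.

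NR4A1 and NR4A2, orphan nuclear receptors made within minutes to hours of many stimuli, lay below their untreated level in Ni-W cells. NR4A1 had 13.0 and 15.4 TPM in UT cells, 30.8 and 27.7 TPM in Ni-E cells and 4.76 and 5.34 TPM in Ni-W cells. The 3 conditions did not overlap, and the Ni-W/UT ratio of 0.378 was the lowest of the 34. The log2 fold change for Ni-W against UT was -1.51 ± 0.28 (SE). NR4A2 was low, with 1.33 and 1.12 TPM in UT cells, 3.08 and 2.87 TPM in Ni-E cells and 0.860 and 0.450 TPM in Ni-W cells, again in 3 separate steps. In all, 5 genes had both Ni-W libraries below both UT libraries, the other 3 being NRARP, PALMD and CASC9, and 4 (GPI, IER5, FGFBP1 and MMP10) had both above.

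HEY1 and NRARP are both targets of Notch signalling, HEY1 a repressor of the HES family and NRARP a feedback inhibitor of the pathway. HEY1 had 6.64 and 5.18 TPM in UT cells, 20.1 and 17.1 TPM in Ni-E cells and 8.23 and 6.16 TPM in Ni-W cells, with overlap of UT and Ni-W. NRARP had 7.01 and 5.53 TPM in UT cells, 15.1 and 12.3 TPM in Ni-E cells and 4.58 and 2.71 TPM in Ni-W cells, where no library overlapped UT. The Ni-W/UT ratios of the pair thus lay on either side of 1, at 1.20 for HEY1 and 0.600 for NRARP. NEUROD4, a neurogenic helix-loop-helix factor, had 18.3 and 12.3 TPM in Ni-E cells against 10.0 and 6.32 TPM in UT cells. LHX4, a LIM homeobox factor of pituitary development, had 4.54 and 2.15 TPM against 2.10 and 1.02 TPM. The Ni-W value of LHX4 in replicate 1, 2.55 TPM, lay above the Ni-E value of replicate 2. ZNF608, a zinc finger protein, and CDCA7L, a MYC-interacting protein, had Ni-E/UT ratios of 1.79 and 2.11.

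Secreted proteins included the most abundant gene of the group. GDF15, a stress-induced cytokine of the TGF-beta superfamily and a p53 target, had 503 and 620 TPM in UT cells, 1077 and 1199 TPM in Ni-E cells and 517 and 699 TPM in Ni-W cells. UT and Ni-W libraries overlapped, and the log2 fold change for Ni-E against UT was 0.99 ± 0.34 (SE). MMP10 and MMP12 are matrix metalloproteinases encoded near each other on chromosome 11. MMP10 had 7.27 and 6.63 TPM in UT cells, 36.1 and 31.6 TPM in Ni-E cells and 8.11 and 7.29 TPM in Ni-W cells, and its log2 fold change of 2.27 ± 0.21 (SE) for Ni-E against UT was the second largest. MMP12 was low, with 0.680 and 0.870 TPM in UT cells, 2.48 and 2.67 TPM in Ni-E cells and 0.720 and 0.590 TPM in Ni-W cells. Both metalloproteinases were higher in Ni-E cells than in all other libraries, and MMP12 rested on few reads.

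FGFBP1, which releases fibroblast growth factors from the matrix, stood nearest the Ni-E threshold, with 44.4 and 42.5 TPM in UT cells, 75.9 and 77.0 TPM in Ni-E cells and 47.0 and 47.3 TPM in Ni-W cells. WNT7A, a Wnt ligand, had 8.07 and 6.81 TPM in UT cells and 15.4 and 14.5 TPM in Ni-E cells. FSTL4, a follistatin-like protein, had 5.53 and 4.24 TPM in UT cells and 14.6 and 10.1 TPM in Ni-E cells. Their Ni-W/UT ratios of 1.098 for WNT7A and 0.868 for FSTL4 lay close to 1.

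CA9 and GPI stand for the hypoxia response. CA9, the membrane carbonic anhydrase that HIF induces, had 83.5 and 90.5 TPM in UT cells, 144 and 160 TPM in Ni-E cells and 80.8 and 98.3 TPM in Ni-W cells. GPI, the second enzyme of glycolysis, had 275 and 269 TPM in UT cells, 499 and 488 TPM in Ni-E cells and 331 and 328 TPM in Ni-W cells. CA9 overlapped between UT and Ni-W cells, while GPI stayed above UT in both Ni-W libraries and had the highest Ni-W/UT ratio of the group, 1.21. Neither gene was called in any of the 3 edgeR comparisons without the block. With the replicate block both were called higher in Ni-E than UT cells and lower in Ni-W than Ni-E cells, contrasts that the rule used.

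Among enzymes and membrane proteins, EXT1, a heparan sulfate polymerase, had 37.4 and 28.8 TPM in UT cells, 66.0 and 56.8 TPM in Ni-E cells and 41.1 and 32.5 TPM in Ni-W cells. EPHA4, an ephrin receptor, had 3.68 and 1.65 TPM in UT cells, 9.05 and 4.98 TPM in Ni-E cells and 2.94 and 1.26 TPM in Ni-W cells. As in MYC, replicate 1 of EPHA4 was the higher one in each condition. MACROD1, a mono-ADP-ribosyl hydrolase, had 6.42 and 7.23 TPM in Ni-E cells against 2.93 and 3.89 TPM in UT cells. DPP10, a potassium channel accessory protein without peptidase activity, had 13.1 and 12.1 TPM in Ni-E cells against 6.15 and 4.91 TPM in UT cells. DPP10-AS1, annotated on the opposite strand within DPP10, had 34.5 and 28.1 TPM against 19.1 and 12.3 TPM. Without strand in the counting, reads from any transcribed sequence that the 2 genes share cannot be told apart. The estimated counts of both genes were whole numbers in each library.

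TUBA4A, EVL, PALMD and GOLGA8A act in or around the cytoskeleton and Golgi. TUBA4A, an alpha-tubulin, had 24.8 and 29.3 TPM in Ni-E cells and 14.0 and 15.4 TPM in UT cells. EVL, an actin regulator of the Ena/VASP family, had 5.09 and 4.67 TPM against 1.25 and 1.98 TPM. PALMD, a paralemmin-family protein, lay below UT in Ni-W cells, with 5.66 and 7.52 TPM in UT cells, 13.7 and 14.9 TPM in Ni-E cells and 4.31 and 4.25 TPM in Ni-W cells. GOLGA8A, a golgin with near-identical copies, had 20.7 and 25.1 TPM against 9.00 and 10.2 TPM in UT cells. Its reads, like those of TUBA4A and the histone gene HIST1H2BG, could in principle be split among paralogs. The estimated counts of these genes were whole numbers in each library, and reads that match several paralogs were not examined.

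The remaining genes were IER5, HIST1H2BG, C11orf96 and CASC9. IER5, an immediate early response gene, had 80.7 and 89.0 TPM in UT cells, 154 and 164 TPM in Ni-E cells and 89.1 and 106 TPM in Ni-W cells. HIST1H2BG (H2BC8 in RefSeq), a core histone H2B, had 21.4 and 14.0 TPM in Ni-E cells against 7.34 and 6.02 TPM in UT cells. C11orf96, an uncharacterised gene, was at 0.480 and 1.62 TPM in UT cells, 4.11 and 3.16 TPM in Ni-E cells and 0.110 and 0.510 TPM in Ni-W cells, from 1 to 56 reads, and its 2 Ni-E/UT ratios, 4.70 and 1.73, differed most. CASC9, a long non-coding RNA, had 2.31 and 2.22 TPM in Ni-E cells, from 27 and 44 reads.

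Genes just inside and outside the thresholds had much the same values. FGFBP1 and CA9, with smaller Ni-E/UT ratios of 1.703 and 1.718, were inside, and SFXN3 and NUDT8, with 1.6995 and 1.685, were outside. GOLGA8A and HEY1, with larger Ni-W/UT ratios of 1.242 and 1.223, were inside, and CD44 and STX16-NPEPL1, with 1.267 and 1.292, were outside. CASC9, with a mean Ni-E level of 2.265 TPM, was inside, and PTHLH and FAM13C, with 1.835 and 1.495 TPM, were outside.

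Lists of known pathways held few of the 34 genes. The list of 14 immediate early factors held MYC and ATF3, and of its 12 genes tested 2 were called higher in Ni-E cells, ATF3 and EGR1. The rule chose ATF3 by its Ni-E level, so its call is not read. Of the 10 non-members tested 1 was called higher, against 1.45% of all genes. EGR1, a zinc finger factor and not one of the 34, had 36.6 and 21.8 TPM in UT cells, 186 and 110 TPM in Ni-E cells and 62.5 and 36.9 TPM in Ni-W cells (log2 fold change 2.34 ± 0.30 for Ni-E against UT, edgeR adjusted p = 0.0280). Its Ni-W libraries lay above both UT libraries, and its Ni-W/UT ratio was above the washout threshold in both replicates. FOS, the AP-1 subunit of the same list, had 553 and 550 TPM in UT cells, 587 and 535 TPM in Ni-E cells and 157 and 249 TPM in Ni-W cells. Thus FOS shared with NR4A1 the low Ni-W level but not the higher Ni-E level, and its log2 fold change of -1.44 ± 0.35 for Ni-W against UT was not called (edgeR adjusted p = 0.202). The list's median log2 fold change, MYC and ATF3 included, was 0.59 for Ni-E against UT, -1.23 for Ni-W against Ni-E and -0.41 for Ni-W against UT. Besides FOS, the non-members FOSB, JUN, JUNB, JUND, IER2 and IER3 had negative log2 fold changes for Ni-W against UT. None of them was called there without the block, and FOSL1, FOSL2 and EGR1 had positive ones. With the replicate block, FOS, FOSB, JUND and IER3 were called lower there (2.78% of all genes), and FOSL1 and EGR1 higher (5.79%).

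The 30 other HIF targets had 17 genes called higher in Ni-E cells, none of which was CA9, and a median log2 fold change of 1.29 for Ni-E against UT and 0.80 for Ni-W against UT. The 22 glycolytic HIF targets had 4 called, not including GPI, with medians of 0.71 and 0.29. Of 18 genes of the endoplasmic reticulum and integrated stress response only ATF3 was called higher in Ni-E cells, and no gene was called among 9 p53 targets (median 0.86 for Ni-E against UT, GDF15 included). No gene of these lists was called lower in Ni-E cells. The lists of interferon-stimulated genes (20), inflammatory cytokines (13), NRF2 targets (15), metallothioneins and zinc transporters (13), oxygen sensing (11), JmjC demethylases (19), EMT (9), cell cycle (18), TGF-beta and BMP response (10) and iron handling (9) held none of the 34.

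Differences between the replicate numbers, which the rule did not use as such, were tested over the 3 conditions in a model with replicate number as a term (added after the data were seen). Replicate 2 was called higher in 9.09% and lower in 12.7% of the 14502 genes. Of the 32 genes 3 were called, all lower in replicate 2, and none higher. MYC was 2.29-fold higher in replicate 1 (log2 difference of replicate 2 from replicate 1 -1.19 ± 0.08 SE, edgeR adjusted p = 7.7e-05). LHX4 was 1.85-fold higher (-0.88 ± 0.15, adjusted p = 0.00105) and EPHA4 1.75-fold higher (-0.81 ± 0.13, adjusted p = 7.6e-04). The TPM values of all 3 genes were also higher in replicate 1 in each of the 3 conditions. The median absolute difference was 0.32 for the 32 genes and 0.35 for all genes on the log2 scale.

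**Figure D3:**
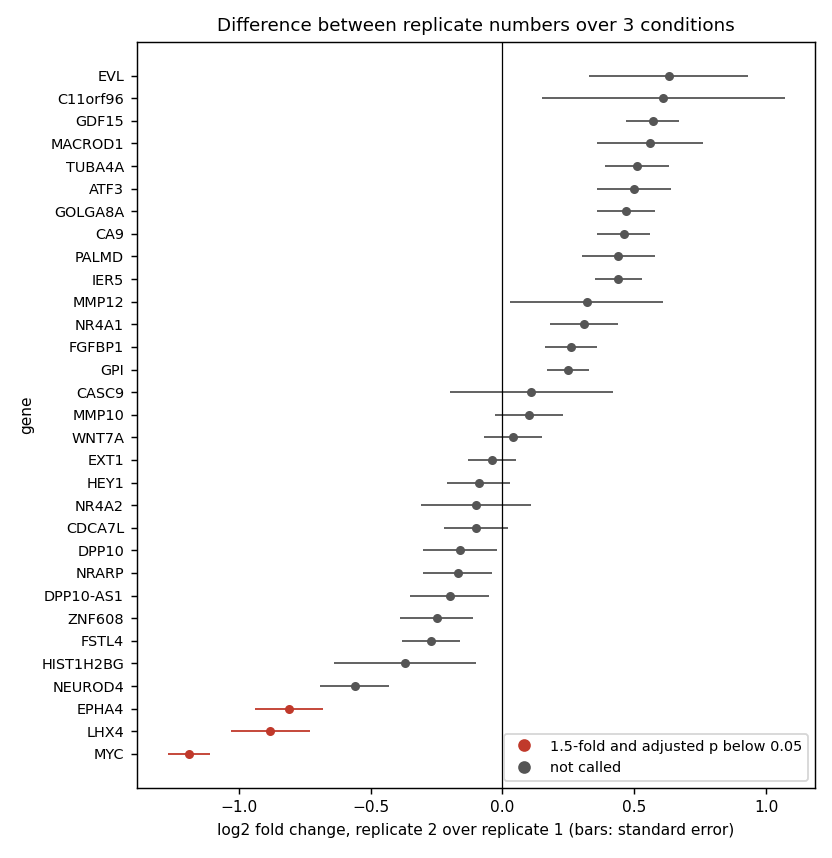
Log2 difference of replicate 2 from replicate 1 over the 3 RT4 conditions for 31 of the genes tested, with bars of 1 standard error. MYC, LHX4 and EPHA4 (red) lie at -1.19, -0.88 and -0.81 and pass the threshold, and the others (grey) lie between -0.56 and 0.63.

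H3K4me3, a histone mark of active promoters, gave a readout in BEAS-2B cells that the rule did not use. Levels are RPKM, reads scaled by window length and library depth, within 2 kb on either side of the start, and their intervals cover counting error only. The median level of the 34 promoters was 2.45 RPKM in UT, 2.22 RPKM in Ni-E and 1.57 RPKM in Ni-W cells. All 26237 promoters had medians of 1.57, 1.39 and 1.12 RPKM, and the 440 other risers listed had medians of 3.92, 3.48 and 2.46 RPKM. At least 1 RPKM in a library was found for 22 of the 34, among them MYC, SNORA21, IER5 and EXT1 with 10 RPKM or more in UT cells. CA9, GDF15, MMP10, MMP12, FGFBP1, EVL, DPP10, DPP10-AS1, NEUROD4, PALMD and CASC9 were below 1 RPKM in all 3 libraries. GPI was listed at 0 in all 3, with 0 reads in each. FGFBP1, among the lowest of the other genes, still had 14 (UT), 19 (Ni-E) and 20 (Ni-W) reads. Whether the listed window covers the GPI promoter was not tested, so its 0 is not read as absence of the mark. GPI stays in the counts and medians of the 34.

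The chromatin dynamic score used by the study is the difference between 2 libraries in the square root of RPKM over the library's median. For Ni-E against UT the median score was 0.061 for the 34 promoters, 0.027 for the other risers and 0.053 for all promoters, and without median scaling it was below 0 for the 34 (-0.009) and for all promoters (-0.017). A score past the counting error of the 2 libraries was found in 12 of the 34 on the higher side, against 29.1% of all promoters, and in 2, GDF15 and TUBA4A, on the lower side, against 3.74%. The highest scores among promoters with 1 RPKM or more were those of SNORA21 (0.247), EXT1 (0.235), MYC (0.184) and NR4A2 (0.181). Among the lowest were those of TUBA4A (-0.168), ZNF608 (-0.029) and EPHA4 (-0.022). The unscaled level of MYC was the same in both, 14.0 RPKM, and its score above 0 comes with the lower median of the Ni-E library (0.885 of the UT median).

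For Ni-W against UT the median score was -0.019 for the 34 promoters, -0.088 for the other risers and -0.027 for all promoters, and with quantile normalization it was above 0 for the 34 (0.018) but not for all promoters (-0.011). Past the counting error, 14 of the 34 were lower (36.3% of all promoters) and 12 higher (19.9%). Among the 22 with 1 RPKM or more in a library, 13 were lower and 6 higher. The promoters of MYC and EXT1 lay among the lower ones. MYC had 14.0 RPKM in UT cells (95% Wilson interval 13.4 to 14.8), 14.0 RPKM in Ni-E cells (13.4 to 14.6) and 7.26 RPKM in Ni-W cells (6.79 to 7.76). EXT1 had 10.2 RPKM (9.66 to 10.8), 10.8 RPKM (10.3 to 11.3) and 5.23 RPKM (4.83 to 5.65) in the same order. Their Ni-W/UT ratios of 0.517 and 0.511 were below the ratio of the library medians, 0.714. EPHA4 (3.98, 3.43 and 1.61 RPKM), MACROD1 (5.87, 5.82 and 2.46 RPKM) and NR4A1 (2.32, 2.25 and 0.986 RPKM) showed the same order, with ratios of 0.405, 0.419 and 0.426. IER5, NRARP and TUBA4A, also among the 14 lower, ranked slightly higher among all promoters in Ni-W than in UT cells. IER5 lay above 96.2% of promoters in UT and 96.7% in Ni-W cells. The rest of the 14 ranked lower, MYC going from 98.6 to 96.2% and EXT1 from 92.5 to 87.2%. A library-wide difference in enrichment was not tested.

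WNT7A and FSTL4 were on the other side. WNT7A had 1.20 RPKM (1.01 to 1.42) in UT cells, 1.36 RPKM (1.19 to 1.56) in Ni-E cells and 2.07 RPKM (1.83 to 2.35) in Ni-W cells, a Ni-W/UT ratio of 1.73, and FSTL4 had 0.907, 0.940 and 1.53 RPKM, a ratio of 1.68. Of the 12 higher scores, 9 were also higher in unscaled RPKM, and those of CDCA7L, GOLGA8A and NR4A2 were lower there. CASC9, DPP10, DPP10-AS1, MMP12, NEUROD4 and PALMD, which are among the 9, were below 1 RPKM in all 3 libraries. All 14 lower scores were lower on both scales. NR4A2 had 5.51, 5.86 and 4.98 RPKM. ATF3, which had the largest Ni-E/UT ratio in RT4 cells after the 2 small nucleolar RNAs, had 1.73, 1.51 and 1.25 RPKM, with scores of -0.007 for Ni-E and 0.009 for Ni-W against UT that did not pass the counting error. With 1 library per condition, a population from 1 colony and another cell line, these differences compare libraries and not the conditions.

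**Figure D4:**
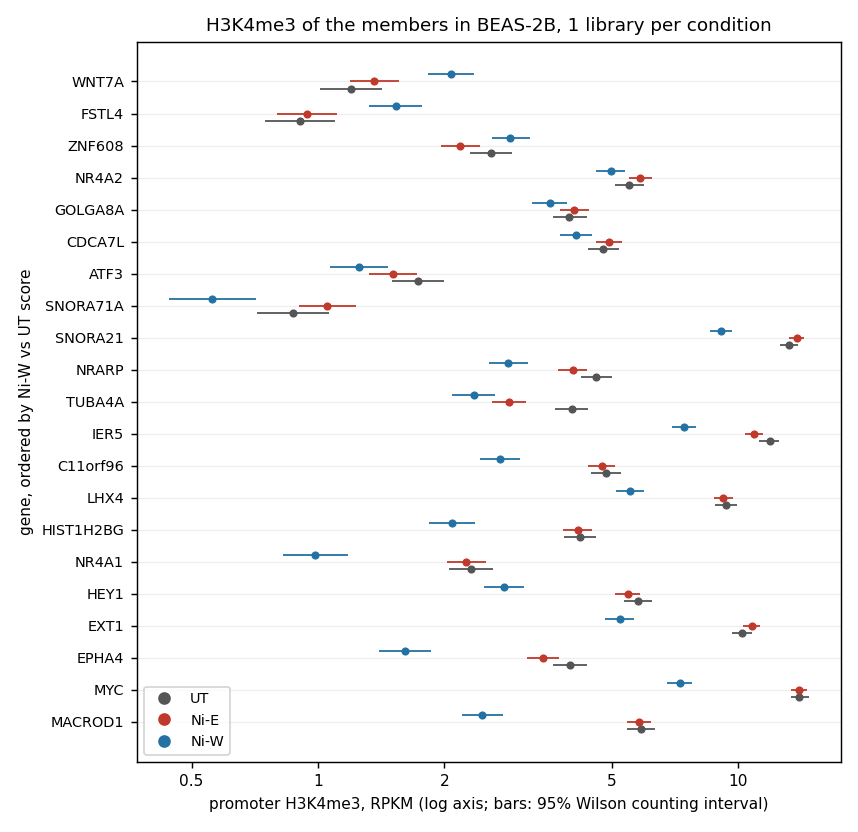
Promoter H3K4me3 (RPKM, log axis) in BEAS-2B cells, grey for UT, red for Ni-E and blue for Ni-W, for 21 of the promoters with 1 RPKM or more in any library, ordered by the Ni-W against UT score, with 95% Wilson counting intervals. The blue points of MYC, EXT1, EPHA4, MACROD1 and NR4A1 lie left of the grey and red ones, and those of WNT7A and FSTL4 lie right of them.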

How the data were processed

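RNA was measured in 6 RT4 libraries (UT, Ni-E, Ni-W, 2 each) and H3K4me3 in 3 BEAS-2B libraries. The RSEM tables the authors deposited list estimated counts, with TPM and FPKM beside them, for 28252 genes. About 98.0% of the counts were whole numbers. The deposited FPKM values were not used. The methods name STAR on hg19, whereas the submitters' processing notes list GRCh38 and STAR, and the aligner and build behind the RSEM values are not given in the sources used here. Strand-specific counting is not stated. ChIP-Seq reads had been aligned by the authors with BWA (hg38) and reduced to 1 copy where redundant, and no peaks were called. From the deposited promoter RPKM read numbers were recovered as whole multiples of a step (97.69% or more of values within 0.00051 RPKM, 28385500 to 37494000 reads). The ChIP input libraries were not analysed here. No columns of the authors' comparisons were used.

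Estimated counts were rounded and tested in edgeR 4.0.16 (quasi-likelihood, TMM factors, filterByExpr, 1 model of 3 groups, all genes adjusted together). DESeq2 1.42.0 and limma 3.58.1 (pseudocount 1, mean TPM of 1 or more) were alternatives, run in R 4.3.3. Scripts were tested on simulated counts for Ni-E against UT over 14502 genes. The model without a block called 4 of 100 genes changed 2-fold and 97 of 100 changed 8-fold. The model with replicate number as a block called 92 and 100. Each model had its own simulated counts, drawn with the spread of its own fit, and those of the block held a built-in replicate difference. The 2 models are therefore not compared on the same data. Changed genes were taken from those above a limit on the mean count. The 32 tested genes had median changes near 2-fold. The members and the lists were chosen with earlier results of these data known. Named genes were the 12 members with the highest mean Ni-E TPM, the 12 with the largest Ni-E/UT ratio, members of the fixed lists and called genes of lists with 2 members, the neighbours of each threshold, the 4 lowest Ni-W/UT ratios, and the 4 highest and lowest H3K4me3 scores, and further members were named. The values of 1 member are not reported here, though it is counted in all totals. Genes named from outside this rule were chosen after their values were seen, such as FOS. Sequences came from the RefSeq promoter table, matched by symbol, and HIST1H2BG was matched as H2BC8. No window of chromosome 8 was counted, either for members or among all windows. CASC9, EXT1, HEY1 and MYC lie on chromosome 8, so the lack of a window does not show that they have no entry. Intervals are Wilson intervals for reads and exact intervals for shares (95%).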

Additional observations from a re-analysis of the deposited data

How the results depend on the processing

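The number of genes chosen by the rule depended on its thresholds and on the replicate numbers. It was 34 as given, 60 and 15 with Ni-E/UT thresholds of 1.5 and 2, 20 and 74 with Ni-W/UT thresholds of 1.1 and 1.5, and 87 with ratios of group means. With the replicate numbers crossed it was 18, of which 15 were among the 34. With 1 replicate left out it was 111 to 161. Pseudocounts of 0.1 and 1 gave 38 and 30, TMM-scaled TPM gave 35, no filter on the Ni-E level 45 and a filter of 5 TPM 27.

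The calls depended most on the pairing. Libraries that share a replicate number deviated together (correlations of the replicate differences 0.61 to 0.75 over 12092 genes), but the labels only call the second library of each condition a duplicate and there are 2 numbers, so the fit with replicate number as a block is an alternative and not the main one. With the replicate block, 1108 genes were called higher in Ni-E than UT cells (7.64%; 31 of the 32 genes), 261 lower in Ni-W than Ni-E cells (1.80%; 31 of the 32) and 1243 in either direction in Ni-W against UT cells. Of the 32, 4 (NR4A1, NR4A2, NRARP and PALMD) were then called lower in Ni-W than UT cells (2.78% of all genes) and none higher. The rule chose genes for agreement within replicate numbers, so nothing is read from these counts. The fixed lists held 49 called genes without the block, 137 with it and 88 with DESeq2.

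For Ni-E against UT, higher, DESeq2 called 461 of 19464 genes (13 of the 32) and limma 107 of 13137 (5 of the 34). Both small nucleolar RNAs were among those of limma. A minimum of 10 counts gave 139 of 13180, and the fit of only the 2 groups 236 of 14279 (5 of the 32). For Ni-W against Ni-E, lower, DESeq2 called 50 (14) and no filter on low counts 5 (3), each of 19464 genes. For Ni-W against UT in either direction, DESeq2 called 442 (1) and no filter 193, each of 19464 genes. A minimum of 10 counts gave 54 and only the 2 groups 0. With 1 library left out, the counts ran from 0 to 214 (0 to 4 of the 32), stayed at 0 (0) and ran from 0 to 38 (0) for the 3 comparisons, the list count ran from 0 to 55, and the medians of the 32 ran from 1.08 to 1.21, -1.57 to -1.29 and -0.34 to -0.06. The cause of these differences was not tested. The median H3K4me3 score without median scaling was -0.190 for Ni-W against UT and -0.173 for Ni-W against Ni-E (all promoters -0.193 and -0.181), and as log2 ratio of (RPKM + 1) -0.269 and -0.200 (all promoters -0.225 and -0.209). For Ni-E against UT the median of 0.061 became -0.009 without median scaling and -0.008 as log2 ratio (all promoters -0.017 in both). For Ni-W against UT the median of -0.019 became 0.018 with quantile normalization and also with promoters of at least 1 RPKM (all promoters -0.011 and -0.003). The direction of these medians therefore depended on the scaling. With ACGTG alone, 34.8% of the windows held the core (21.6% of all windows).

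With 2 libraries per group, changes near 2-fold were seldom called without the block in simulated counts, so a missing call does not show that a gene did not change. SNORA21 and SNORA71A rest on 1 or 2 reads in each Ni-E library.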
